A study of Homo sapiens with 40 samples.

Results

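This section describes genes whose messenger RNAs end their coding region at the same base but carry 3' untranslated regions (UTRs) of different length behind it. A gene was taken when at least 2 of its transcript models with a coding region shared the last base of that region, had no intron downstream of it, had 3' UTRs of at least 3 nt and differed by 100 nt or more in the length of the 3' UTR. Of the 9460 genes in the catalogue, 467 met this rule. A total of 3020 genes had at least 2 coding models that shared a stop in this way at any distance, and are called eligible here, so 15.5% of eligible genes were members. Members were thus selected on their 3' UTR lengths and the distance between them, and these values are given as a description.

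The series followed the translation of RNA isoforms in H9, a human embryonic stem cell (ESC) line, and in neural progenitor cells (NPC) made from it. ESC were the control cells, and NPC were obtained by dual-SMAD inhibition, which blocks TGF-beta and BMP signalling. Each cell type gave 4 fractions, namely cytosol, monosome, light polyribosome with 2 to 4 ribosomes and heavy polyribosome with 5 or more, and the 8 groups had 2 long-read and 3 short-read libraries each (16 and 24 in all). The data here are 1 long-read catalogue of 19972 transcript models without a value per library, so ESC and NPC or fractions were not compared and the depth behind a model is unknown. Stem cell genes (POU5F1, NANOG, LIN28B, DNMT3B) and progenitor genes (PAX6, OTX2, NES, FABP7) each had at least 1 model. Of these 8 genes only OTX2 was eligible, and it was not a member.

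Cells cleave a nascent transcript at a polyadenylation site, and many genes have several such sites in their last exon. Use of a proximal or a distal site leaves the protein as it is and changes the length of the 3' UTR, where microRNAs and RNA-binding proteins can bind and affect the stability, location and translation of the message. Neural cells are known for frequent use of distal sites. In the deposited models every one of the 19972 intron chains was held by 1 model only. Both ends of a gene therefore always came with different splicing upstream, and 2 ends of an otherwise identical message are not represented.

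The median of the members' shorter 3' UTRs lay below, and that of their longer ones above, the median length in the other genes. Members were selected for a wide gap between the 2 lengths, and the rule itself favours this pattern. The shorter 3' UTR had a median of 272 nt (95% interval from order statistics 247 to 294 nt, quartiles 147 and 503 nt) and the longer one a median of 996 nt (920 to 1096 nt, quartiles 598 and 1530.5 nt). In the 2553 eligible genes under 100 nt the shortest 3' UTR had a median of 397 nt and the longest a median of 401 nt. In the 4973 other genes with a coding model of this kind the median of the longest was 630 nt. The members' median distance was 583 nt (508 to 642 nt, quartiles 285.5 and 1066.5 nt), with 130 genes at 1000 nt or more and 20 at 2000 nt or more. The median ratio of longer to shorter was 3.24, and it was at least 2 in 337 genes (72.2%) and at least 10 in 52 (11.1%). The rule sets a floor under the longer length, and no test was made on these values. Across the 467 genes the shorter and the longer length were loosely related (Spearman's rho 0.44, a description across genes that share 1 catalogue).

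**Figure D1:**
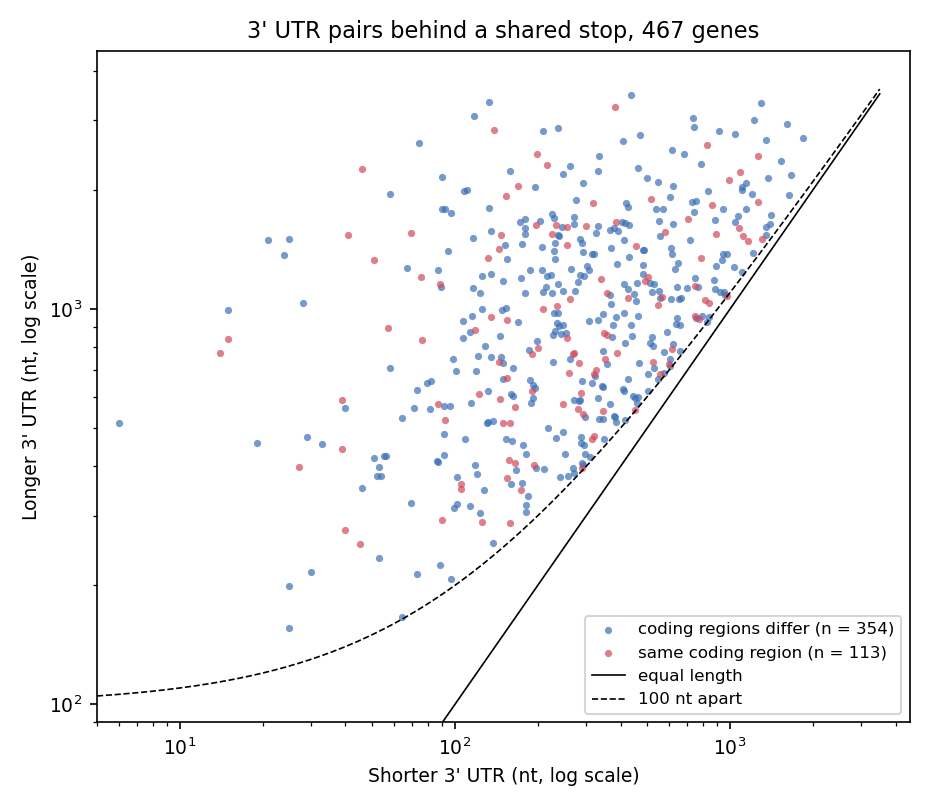
Shorter (x axis) against longer (y axis) 3' UTR length in nt, both on log scales, for 467 genes; red points have the same coding region in both models (n = 113), blue points do not. Points lie on or above the dashed line of 100 nt by the rule and spread from 6 to 1841 nt on the x axis and from 156 nt upwards on the y axis.

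Most eligible genes ended at or within a few nt of the same base. Of the 3020 eligible genes 1069 ended at the same length and 1324 ended 1 to 9 nt apart. Another 91 ended 10 to 23 nt apart. A further 23 genes lay at 24 to 49 nt and 46 at 50 to 99 nt. From the limit of 100 nt on, 71 genes lay below 200 nt, 136 from 200 to below 500 nt, 130 from 500 to below 1000 nt and 130 at 1000 nt or more. These ranges differ in width, so their counts cannot show whether there is a gap at the limit. Just inside it were RCC1, the exchange factor of the GTPase Ran, with 975 and 1076 nt, AARSD1 with 64 and 166 nt, and the mitochondrial RNA methyltransferase gene MRM2 with 825 and 927 nt. Just outside were BORCS5, a lysosome-positioning gene, with 363 and 461 nt, EEF1AKMT2 with 547 and 640 nt, and the ribosomal protein gene RPL14 with 44 and 136 nt.

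**Figure D2:**
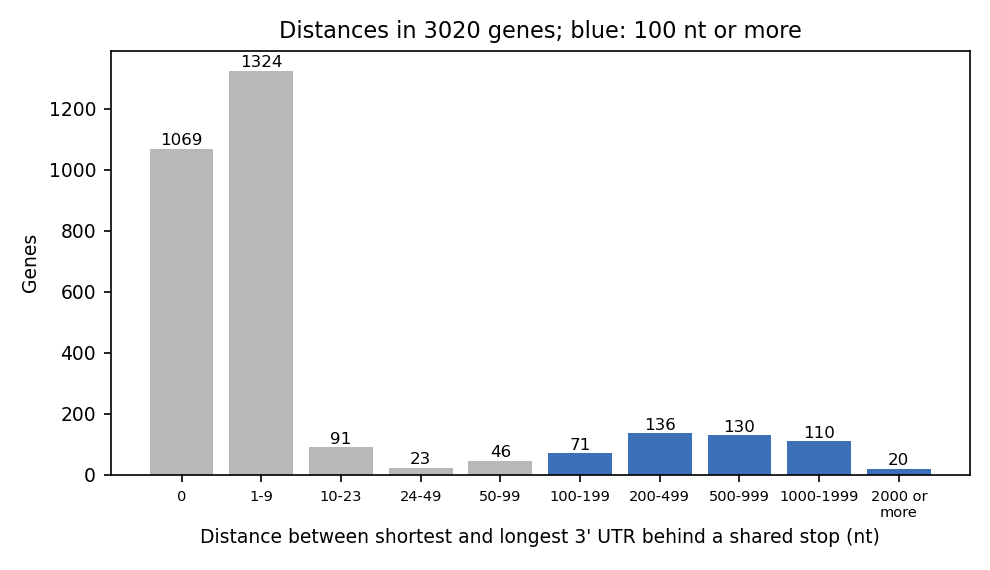
Number of genes (y axis) by distance in nt between the shortest and the longest 3' UTR behind 1 stop (x axis, unequal bins), for 3020 eligible genes. Blue bars are the 467 genes at 100 nt or more; the tallest bars are those at 1 to 9 nt (1324) and 0 nt (1069), and bars of unequal width in nt cannot be compared as densities.

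The largest distance was in APH1B, which encodes a subunit of the gamma-secretase complex. Its coding region ended at 63305781 on chromosome 15 (plus strand; positions as deposited, counted from 1, in a build that no source used here gives), and the models ended 133 and 3345 nt behind it, at 63305914 and 63309126. PLEKHB2, which encodes an endosomal protein with a pleckstrin homology domain, had 117 and 3074 nt (chromosome 2, coding end 131146773). Both genes had coding regions that differed upstream of the shared stop. APH1B had 217 codons before the shorter and 258 before the longer 3' UTR, and PLEKHB2 had 237 and 223.

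LANCL1 and S100PBP showed distances of the same order with 1 unchanged coding region. LANCL1, a LanC-like protein gene on chromosome 2 (minus strand, coding end 210434487), had 382 and 3235 nt behind 400 codons in both models. S100PBP on chromosome 1 (plus strand, coding end 32856038) had 2 models ending 139 and 146 nt and 2 ending 2837 and 2839 nt behind the stop, so each end was held by 2 spliced forms. Its shortest and longest forms both had 408 codons, and the 2 groups of ends lay 2700 nt apart at their extremes.

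In the other 5 of the 10 genes with the largest distance the coding regions differed. POLR2M, the locus of an RNA polymerase II-associated protein, had 236 and 2875 nt, with 138 and 369 codons. IP6K1, an inositol hexakisphosphate kinase gene, had 209 and 2820 nt, with 277 and 436 codons. ATPAF1, an assembly factor gene of the mitochondrial ATP synthase, had 734 and 3035 nt, with 261 and 329 codons. SPRING1, a regulator of the SREBP sterol pathway, had 469 and 2753 nt, with 176 and 206 codons. In these 4 genes the model with the longer 3' UTR also had more codons. Like PLEKHB2, EXOC7, an exocyst subunit gene, went the other way, with 74 nt behind 685 codons and 2629 nt behind 654.

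**Figure D3:**
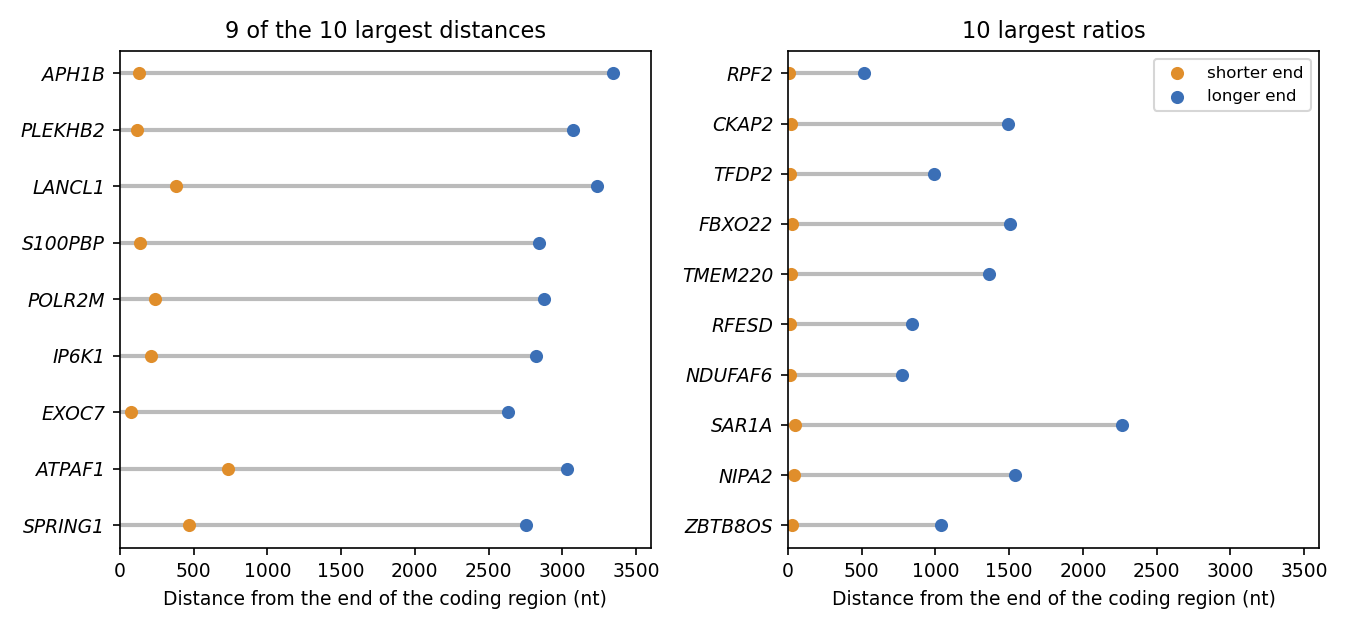
Ends of the shorter (orange) and longer (blue) 3' UTR as distance in nt from the end of the coding region (x axis) for 9 of the 10 genes with the largest distance (left) and the 10 with the largest ratio (right). The longer end of APH1B lies farthest out of those shown, at 3345 nt, and the shorter end of RPF2 nearest, at 6 nt.

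A group of members ended almost directly behind the coding region. In 69 members (14.8%) the shorter 3' UTR had fewer than 100 nt, and the largest ratios came from these. Such short 3' UTRs were not particular to members. The 10th percentile of the shorter length was 81.6 nt in members and 94 nt in eligible genes with ends under 100 nt apart. RPF2, a factor of large ribosomal subunit assembly, had 6 and 514 nt. CKAP2, a spindle protein gene, had 21 and 1492 nt. TFDP2, which encodes a dimer partner of E2F transcription factors, had 15 and 993 nt, and 7 of its 8 models lay within 24 nt of the shorter length. Such a short end was also held by several models in ZBTB8OS, which encodes archease, a partner of the tRNA ligase. There, 7 models lay within 24 nt of 28 nt and 2 within 24 nt of 1038 nt. FBXO22 (25 and 1504 nt), TMEM220 (24 and 1366 nt) and RFESD (15 and 839 nt) completed the top of this order, with NDUFAF6, a complex I assembly factor gene, at 14 and 776 nt. SAR1A, the GTPase of COPII vesicle coats, had 46 and 2265 nt and the magnesium transporter gene NIPA2 had 41 and 1537 nt.

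Most members had 2 groups of ends, and 21 had 3 or more. Ends were put into 1 length class when neighbouring lengths lay within 24 nt of each other. EEF2KMT, a methyltransferase gene for elongation factor eEF2, had the most, with 4 classes: 1 model at 232 nt, 3 at 281 to 306 nt, 1 at 907 nt and 2 at 1337 to 1341 nt. ZNF576, a zinc finger gene, had 2 models at 153 to 156 nt, 2 at 738 to 746 nt and 1 at 1931 nt. NIPA2 had a middle class at 868 nt in 4 of its 6 models. GOSR2, a Golgi SNARE gene, had 3 models at 231 to 237 nt and 1 each at 627 and 1465 nt. TOM1L1, an endosomal adaptor gene, had 87, 793 to 795 and 1257 nt.

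DEDD, a death effector domain gene, had 491 to 493, 818 and 1175 nt, and OARD1, an ADP-ribose hydrolase gene, had 547, 858 to 861 and 1021 nt. Among the 10 genes with the most ends were also HMCES (428 to 430, 466 and 1352 nt), FAM118B (520 to 523, 794 to 795 and 851 nt) and the ciliary transport gene IFT22 (344 to 346, 407 and 634 nt).

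Short ends were held by more models than long ends in most genes where this could be counted. The 467 genes had 1356 models behind the shared stop, of which 725 lay within 24 nt of the shorter length, 596 within 24 nt of the longer and 35 between. Of the 216 members with at least 3 models, 29 had equal numbers at both ends, and of the other 187 genes 129 (69.0%, Wilson interval 62.0 to 75.2%) had more at the shorter length. In 42 members at least 2 models stood at each end, of which 3 are given here, chosen after their values were seen. APTX, a repair gene for DNA strand breaks, had 6 models near 118 nt and 10 near 883 nt. HNRNPH3 had 3 near 215 nt and 4 near 1139 nt, and ZC3H14, a poly(A)-binding zinc finger gene, had 3 near 135 nt and 4 near 1229 nt. A model count says how many spliced forms ended there and not how abundant they were. The share of eligible genes that were members did not climb steadily with the number of models behind the stop: it was 14.5% (251 of 1733) with 2 models, 17.9% (115 of 643) with 3, 14.5% (46 of 317) with 4 and 16.8% (55 of 327) with 5 or more.

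The model with the longer 3' UTR usually had the longer coding region. The rule did not use this property, which was added after the data were seen. In 113 members (24.2%, 95% Wilson interval 20.5 to 28.3%) both models had the same coding region, near the 26.9% in eligible genes under 100 nt. In 353 members the number of codons differed. Among those 353 the longer coding region lay in the model with the longer 3' UTR in 278 (78.8%, 74.2 to 82.7%). In eligible genes under 100 nt the same count was 947 of 1855 (51.1%, 48.8 to 53.3%). In 760 of those 1855 genes both models ended at the same length, so that the order of the pair was set by model identifier. Where the ends differed the share was 53.9% at distances of 1 to 9 nt and 62.9% at 10 to 99 nt. In the 4 bins from 100 nt it was 81.0%, 77.6%, 76.8% and 80.4%, with no order by distance. Values for genes under 100 nt in the paragraphs that follow also include pairs of equal length, ordered by identifier. The intervals describe counting error only, and genes are not replicates, so no test was made.

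**Figure D4:**
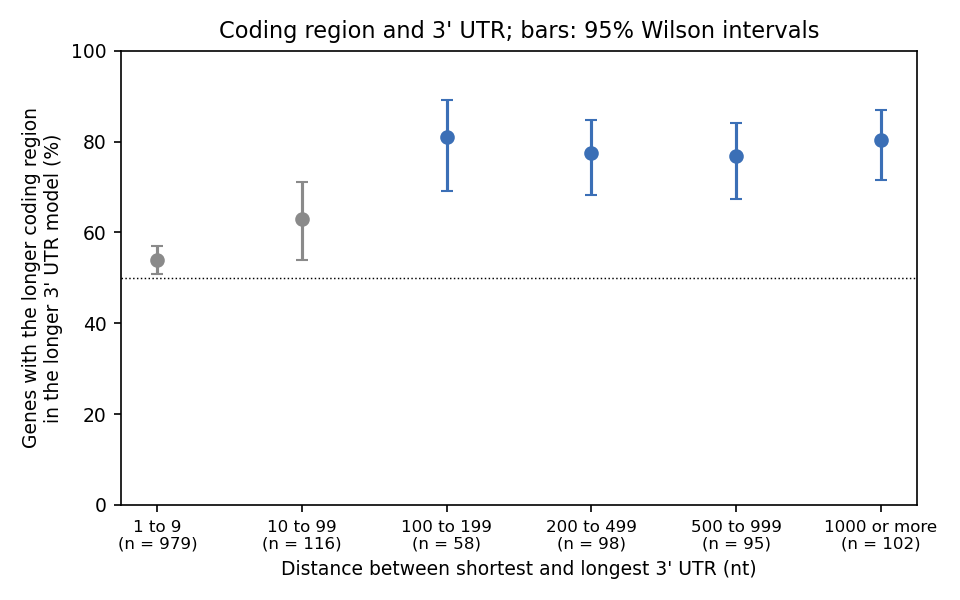
Share of genes (y axis, %) in which the model with the longer 3' UTR has the longer coding region, by distance between the 2 lengths (x axis), among genes whose models differ in codon number; bars are 95% Wilson intervals. Grey points are genes under 100 nt, at 53.9 and 62.9%, and blue points are members, at 76.8 to 81.0%.

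The difference in coding region had a median of 50 codons (95% interval 43 to 59), beside 53 in genes under 100 nt. In NAMPT, which encodes a rate-limiting enzyme of NAD salvage, 125 codons stood before 1038 nt and 492 codons before 2773 nt. RARS2, the mitochondrial arginyl-tRNA synthetase gene, had 216 codons before 29 nt and 579 before 474 nt, and RBM34 had 118 before 64 nt and 431 before 530 nt. Other RARS2 models had 266 and 404 codons before 29 nt and 404 before 471 nt. The largest difference in the other direction was in the nuclear pore gene NUP133, with 1091 codons before 162 nt and 108 before 602 nt. These 4 genes were chosen after their values were seen. Of the 157 genes in which the smaller coding region had under 80% of the codons of the larger, 135 (86.0%) had the larger one before the longer 3' UTR. In genes under 100 nt the same count was 421 of 842.

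Start positions and exon skipping showed the same orientation in the same pairs of models. These counts are not independent of the one on coding regions. Behind a shared stop, a start nearer the stop tends to go with a shorter coding region and a longer 5' UTR. The 2 coding regions began at different positions in 212 members, and in 173 of these (81.6%, 75.8 to 86.2%) the start in the model with the shorter 3' UTR lay nearer the stop, against 597 of 1126 (53.0%) in genes under 100 nt. Where the start was shared but the coding region was not, the longer 3' UTR went with the longer coding region in 103 of 142 members (72.5%). In genes under 100 nt with a shared start and coding regions of different length, this was so in 363 of 733 (49.5%). An exon of the longer-UTR model was skipped in the shorter-UTR model in 159 members (29.9 to 38.5%), and the reverse was seen in 93 (16.5 to 23.8%). In the 2553 genes under 100 nt the counts were 612 and 681. The 5' UTR had a median of 208 nt in the shorter-UTR model and 109 nt in the longer, and was the shorter of the pair in the longer-UTR model in 305 of 432 members (70.6%). In genes under 100 nt the latter count was 1268 of 2387 (53.1%). In members the 5' UTR was also mostly shorter in the longer-UTR model where the coding region was the same (77 of 113, 68.1%, 59.1 to 76.0%). The 5' UTR and coding region together were longer in the longer-UTR model in 252 of 465 members (54.2%, 49.6 to 58.7%), and in 35.4% (28.1 to 43.4%) of 147 genes when pairs were limited to 1 coding region. In the latter pairs only the 5' UTR could differ.

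The last intron, just upstream of the shared stop, was identical in both models in 425 members (91.0%), near the 88.7% in eligible genes under 100 nt. The 5' ends of the models lay within 24 nt of each other in 304 members (65.1%) and over 100 nt apart in 88 (18.8%). In genes under 100 nt these shares were 55.4% and 22.9%. The longer-UTR models had a median length of 2183 nt, of which the 3' UTR made up a median of 49.4%, and the shorter-UTR models had 1384 nt and 22.3%. In 260 members (55.7%) the longer 3' UTR exceeded the coding region in length. No member model was longer than 4645 nt, while the longest model of the catalogue had 5877 nt.

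Some extensions, meaning the stretch between the shorter and the longer end, ran over an exon of a neighbouring gene on the opposite strand. This was so in 36 members (7.71%, Wilson interval 5.62 to 10.5%), against 18 (3.85%, 2.45 to 6.01%) for the shorter 3' UTR of the same genes. The extensions had 349571 nt in all and the shorter 3' UTRs 176486 nt, and 3.09% and 1.31% of these bases lay opposite another gene's exon. All 18 genes with a shorter 3' UTR opposite another gene were among the 36. On the same strand no extension and no shorter 3' UTR overlapped an exon under another gene identifier (0 of 467 each). This count depends on how the catalogue names genes. Of its identifiers 43 join gene names, and genes that shared a name part with the member were not counted. It therefore cannot show whether extensions run into neighbours on the same strand. In 13 members the whole extension was covered, among them, chosen after their values were seen, the peroxisome gene PEX10 (845 nt, opposite RER1), MRPS18C (871 nt, opposite ABRAXAS1) and NDUFB6 (762 nt, opposite SMIM27).

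In 3 pairs of convergent neighbours both genes were members and each extended over the other; they are named here for that reason. EXOSC8, an RNA exosome subunit gene, extended from 99 to 314 nt, and SUPT20H, a SAGA complex gene, from 210 to 394 nt, and both extensions lay wholly opposite the other gene. NIT1, an amidase gene, extended from 297 to 429 nt opposite DEDD along its whole length, and 223 nt of the 684 nt extension of DEDD lay opposite NIT1. NSG1, a neuronal endosomal gene, extended from 300 to 1623 nt, and STX18, a SNARE gene of the endoplasmic reticulum, from 556 to 1064 nt, with 89 nt of each opposite the other gene.

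By chromosome, the interval of the share of members lay wholly below 15.5% on 3 chromosomes and wholly above it on 2. On chromosome 19, which is dense in genes, 17 of 252 eligible genes were members (6.75%, Wilson interval 4.25 to 10.5%), on chromosome 16 there were 12 of 150 (4.64 to 13.5%) and on chromosome 11 there were 20 of 201 (9.95%, 6.53 to 14.9%). The 2 above were chromosome 15 (22 of 93, 23.7%, 16.2 to 33.2%) and chromosome 8 (25 of 112, 22.3%, 15.6 to 30.9%). On all others the interval included 15.5%, also where the share was as high as 25.6% (chromosome 13, 10 of 39, 14.6 to 41.1%), and no test was made between chromosomes. By RefSeq's gene types 463 members were protein-coding. SNHG7 and INSYN1-AS1, long non-coding RNA genes, and the pseudogenes STAG3L4 and RPL23AP82 were members through coding regions given in the deposited models.

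Of the 28 gene lists examined, splicing factors and hnRNPs had the highest share of members among lists with at least 20 eligible genes: 12 of 36 (33.3%, Wilson interval 20.2 to 49.7%), beside 15.5% over all eligible genes. Their median distance was 709.5 nt, beside 583 nt over all members. RBM8A, which encodes an exon junction complex core protein, had 159 and 2232 nt, with 174 and 175 codons. The spliceosome gene PRPF38A had 331 and 1624 nt, with 126 and 313 codons, and the SR protein gene SRSF7 had 238 and 1529 nt, with 236 and 239 codons. Of the 12 genes 2 had the same coding region in both models.

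**Figure D5:**
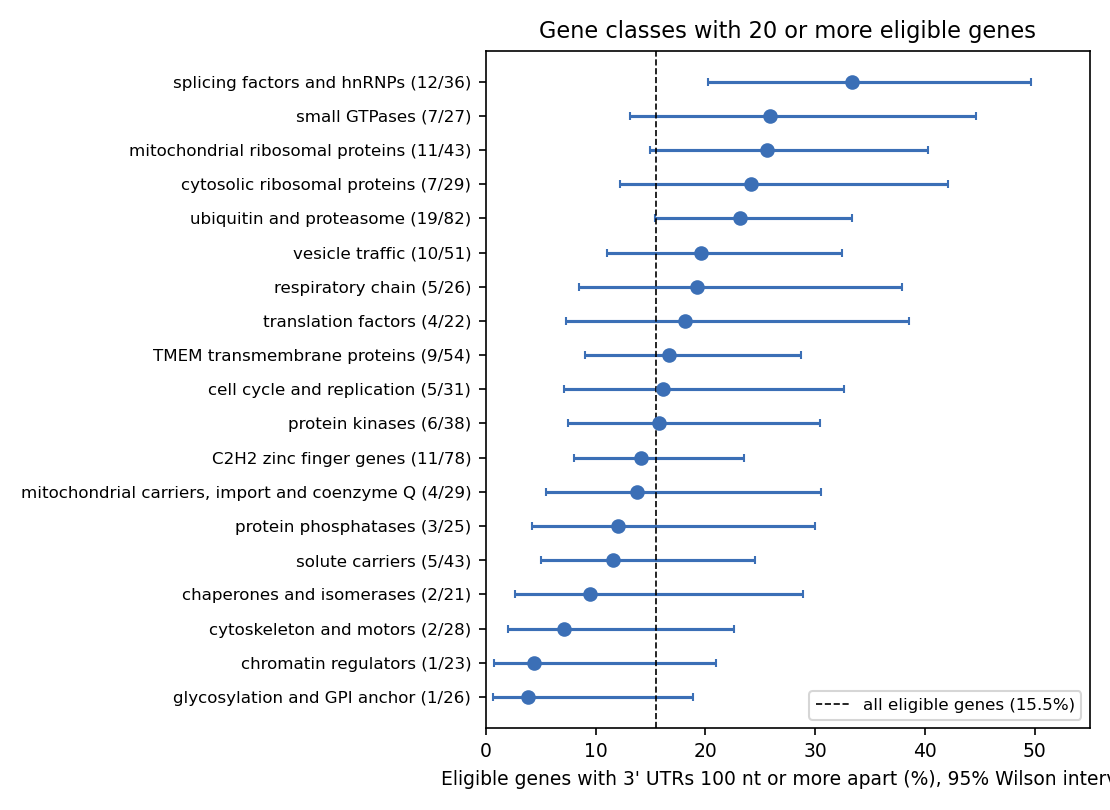
Share of eligible genes with 3' UTRs 100 nt or more apart (x axis, %, with 95% Wilson intervals) in the gene lists with at least 20 eligible genes (y axis, members and eligible genes in brackets). The dashed line marks 15.5% over all eligible genes; the interval of splicing factors and hnRNPs, 20.2 to 49.7%, lies to its right.

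Genes of protein turnover and of membrane traffic had median distances near or above that of all members. Of 82 eligible ubiquitin and proteasome genes 19 were members (23.2%, 15.4 to 33.4%), with a median longer 3' UTR of 1643 nt and a median distance of 985 nt. FBXO36, an F-box gene, had 330 and 2232 nt, USP30, a mitochondrial deubiquitinase gene, 291 and 2083 nt, and the conjugating enzyme gene UBE2G2 787 and 2331 nt. Small GTPases had 7 of 27 (25.9%, 13.2 to 44.7%) and a median distance of 1019 nt. Beside SAR1A these included the recycling endosome GTPase gene RAB11A with 244 and 1611 nt. The list of vesicle traffic genes, matched by gene name, had 10 of 51 (19.6%). These counts include SEC11A and VPS72, which match by name but are not vesicle traffic genes. TRAPPC13, of the TRAPP complex, had 152 and 1455 nt in this list, next to EXOC7 and GOSR2.

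Ribosomal protein genes of the cytosol mostly shared the coding region. Of 29 eligible genes 7 were members (24.1%, 12.2 to 42.1%), and in 6 of the 7 both models had the same coding region, beside 24.2% over all members. Their shorter 3' UTR had a median of 51 nt. RPL15 had 51 and 1334 nt, RPL35A 76 and 837 nt, and RPL22L1, the exception, 115 and 960 nt with coding regions that differed by 1 codon. These genes have many pseudogene copies, and no source used here says how reads were divided among copies. Mitochondrial ribosomal proteins had 11 of 43 (25.6%, 14.9 to 40.2%), and 2 of the 11 shared the coding region. MRPS16 had 111 nt behind 52 codons and 2003 nt behind 138 codons, MRPS14 had 271 and 1710 nt, and MRPS18C had 226 and 1097 nt.

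Other lists had shares nearer to that of all eligible genes, or below it. Respiratory chain genes had 5 of 26 (19.2%), with NDUFAF4 at 90 and 1789 nt and NDUFB6 at 113 and 875 nt. Translation factors had 4 of 22 (18.2%), among them the initiation factor genes EIF4B (108 and 1986 nt) and EIF2A (330 and 938 nt) and the release factor gene GSPT1 (438 and 913 nt). Zinc finger genes had 11 of 78 (14.1%), led by ZNF576, ZNF286A (147 and 1538 nt) and ZNF74 (713 and 1491 nt). Genes of TMEM transmembrane proteins had 9 of 54 (16.7%), among them TMEM33 (256 and 1608 nt) and TMEM18 (378 and 1601 nt).

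Protein kinases had 6 of 38 (15.8%) and a median distance of 1085.5 nt. MAP2K4, a stress kinase gene, had 683 and 2471 nt, the checkpoint kinase gene CHEK1 425 and 1811 nt, and the casein kinase gene CSNK2A1 1261 and 2435 nt. Cell cycle and replication genes, a list matched by gene name, had 5 of 31. They included the origin recognition gene ORC4 (247 and 1111 nt) and ANAPC10, of the anaphase-promoting complex (790 nt apart). The list also counted CCNL2 (524 and 734 nt), which is cyclin L2 by name and not a cell cycle cyclin. Protein phosphatases had 3 of 25: PPP1R7 (630 nt apart), PPP2R2D (282 and 585 nt) and PPP6C (545 and 667 nt). Solute carriers had 5 of 43, with SLC25A26 at 273 and 1113 nt, SLC25A17 at 747 and 1198 nt and SLC35B1 at 131 and 515 nt. Mitochondrial carrier and import genes had 4 of 29, among them TIMM50 (102 and 321 nt).

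Among lists with at least 20 eligible genes the lowest shares were in glycosylation and GPI anchor genes (1 of 26, the oligosaccharyltransferase gene STT3A with 247 and 574 nt) and chromatin regulators. Among 23 eligible chromatin regulators the only member was CBX5, the heterochromatin protein HP1-alpha gene, with 132 and 1348 nt before 1 coding region of 192 codons. Their Wilson intervals were 0.682 to 18.9% and 0.772 to 21.0%, and both include 15.5%. Cytoskeleton and motor genes had 2 of 28, ACTR3B (416 and 819 nt) and DCTN2 (378 and 536 nt). Chaperones and isomerases had 2 of 21, DNAJB4 (1069 and 1714 nt) and PFDN6 (87 and 576 nt). Among 12 eligible RNA helicases DHX32 was the only member (174 and 348 nt).

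Lists of genes that make or read 3' UTRs held few eligible genes, and each interval of their shares included 15.5%. Of 19 cleavage and polyadenylation genes with a model 5 were eligible, and 1 was a member (3.62 to 62.4%): CSTF3, a cleavage stimulation factor gene, with 149 nt behind 136 codons and 667 nt behind 104. Of 30 genes with a model for proteins that bind 3' UTRs 12 were eligible, and 3 were members (8.89 to 53.2%). FXR1, a paralogue of the fragile X gene, had 254 and 868 nt, TIA1, a stress granule gene, 1036 and 1278 nt, and STAU1, a binder of double-stranded RNA, 1353 and 1538 nt. Of the 2 eligible microRNA pathway genes none was a member (0 to 65.8%), and of 15 eligible deadenylation and decay genes EXOSC8 was the only one (1.19 to 29.8%).

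Lists on cell identity held few eligible genes too, and the intervals of their shares all included 15.5%. ZFP42, a stem cell zinc finger gene also known as REX1, was 1 of 4 eligible pluripotency genes (4.56 to 69.9%), with 1306 and 1505 nt before the same 311 codons. SMAD2, which carries TGF-beta and Nodal signals, was 1 of 4 eligible genes of SMAD signalling, with 581 nt in 1 model, 1568 nt in 2 models and 468 codons at both ends. None of the 5 eligible genes of neural progenitors and neurons was a member, which leaves an interval of 0 to 43.4%.

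Textbook examples of tandem 3' UTRs were mostly not testable by the rule. Of 35 such genes with a model 4 were eligible, and 1 was a member. CDC42, a small GTPase gene chosen here after its values were seen, had 771 and 1426 nt behind different stops, each after 192 codons, and was therefore not eligible.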

How the data were processed

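The file is the authors' deposited catalogue of transcript models; its values are positions in nt of transcripts, exons and coding segments, which is no expression unit. STAR 2.7.8a and Salmon 1.9.0 are listed in the submitters' processing notes, with nothing on their use. No source used here gives the model builder, the coding-region caller, the build or the libraries behind the catalogue, and no genome was used, so the planned search for polyadenylation signals was not run and no sequence is printed. Deposited coding regions include the stop codon in the genes checked (GAPDH 336 codons, ACTB 376).

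Selection used Python 3.11.15, numpy 2.4.6, scipy 1.17.1 and pandas 2.3.3, and was tested on simulated models. Per gene the stop with the largest distance was kept, with the shortest and the longest model there; ties went to the first model identifier. RefSeq (GRCh38.p14) gave gene types only; all 467 members matched a symbol or 1 synonym. Wilson and order-statistic intervals are 95%. The members and lists were chosen with earlier results of these data known. For misassigned names 1 list was dropped and 2 were trimmed. Lists matched by gene name still hold misassigned genes, such as VPS72 among vesicle traffic genes. Named genes were the 10 with the largest distance, ratio and number of ends, up to 3 per list, all in 7 lists on RNA ends and cell identity, and 3 on each side of the limit; other names are marked as chosen after their values were seen. Some genes that this rule names are not reported here.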

Additional observations from a re-analysis of the deposited data

How the results depend on the processing

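Of 95 pairs of 8 results and 12 alternatives, 76 stayed within the main interval (counts within 1.5 times). Leaving out joined identifiers or chromosome Y changed no value, because no member had a joined identifier or lay on chromosome Y. The pairs from these alternatives are among the 76 and were fixed in advance. Minimum distances of 200 and 500 nt moved the median longer 3' UTR to 1112 and 1410 nt and the median distance to 685 and 998.5 nt, and 500 nt left 260 genes. Pairs with 1 coding region left 147 genes, all (100%) sharing it by construction. The rest of the model could then differ only in the 5' UTR, and was longer beside the longer 3' UTR in 35.4%. The main value of 54.2% had an interval (49.6 to 58.7%) that included 50%. With introns downstream of the stop the same coding region was found in 36.6%. With each length class in at least 2 models 45 genes were left, with medians of 235 and 858 nt, a shared coding region in 33.3%, an overlap in 2.22%, a longer rest in 47.7% and the longer coding region beside the longer 3' UTR in 90% of 30 genes. With exactly 2 models (chosen after seeing the data) the values were 251 genes, 20.3% and 5.58%. The direction of the coding-region result, itself chosen after seeing the data, held in each of the 11 alternatives where it could be computed, at 75.8 to 90%. The 11 include the alternatives without joined identifiers and without chromosome Y, which changed nothing.

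No paired analysis was possible because the catalogue has no value per library. Model ends are not backed by read counts here, so their precision and the abundance of each end are unknown, and the absence of a longer or shorter end is not shown.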
